A study of Rattus norvegicus with 18 samples.

Results

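Bmal1 (also called Arntl, ENSRNOG00000014448) and Clock (ENSRNOG00000002175) encode the partners of the activating complex of the circadian clock. Their transcripts were followed through a bulk RNA-seq study of rat intestine. The 2 genes were chosen by Ensembl identifier, out of 30562 in the table, with their levels in these groups already known. All contrasts of their levels are therefore given as a description, with errors and without a p-value. The identifiers were checked by chromosome. On mRatBN7.2, Bmal1 lay on the forward strand of chromosome 1 from 167331633 to 167430231, and Clock on the forward strand of chromosome 14 from 31908566 to 31990400. RefSeq places genes of these names on the same chromosomes and the same strand of the newer GRCr8 assembly. The span of Bmal1 was 98599 bases here and 98520 in RefSeq, and that of Clock 81835 and 84126. The 23 exon blocks of Bmal1 (3252 bases) and the 25 of Clock (7621 bases) overlapped no exon of another annotated gene, so counting without strand did not mix their reads with those of an annotated neighbour.

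The rats were wild-type Sprague-Dawley, an outbred stock. The 6 controls were left untreated. X-rays were given once, at 10 Gy, to 12 rats, and 6 of these were then given Changbing Formula, a preparation that the labels only name. There was no unirradiated group with the formula, so the formula can be read only against irradiated rats, or together with irradiation against controls. The tissue is labelled intestine without a segment. The labels record neither the age and sex of the rats nor the interval between irradiation and sampling. The hour at which tissue was taken is not recorded either, beyond a light/dark cycle of 12 h. The free-text description of every library speaks of untreated rats, against the titles of 12 of them, and the titles were followed.

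The clock is a feedback loop that runs in nearly every cell. BMAL1 and CLOCK are bHLH-PAS transcription factors that bind DNA as a pair, at E-box elements, and switch on the genes of their own repressors, the PER and CRY proteins, and of output factors such as DBP. A second loop acts on Bmal1: receptors of the ROR family activate it and the REV-ERB receptors repress it, through the same element in its promoter. In most tissues the Bmal1 transcript swings strongly over the day and the Clock transcript less so. The gut carries such a clock in its epithelium, where feeding also sets its phase. The hour of sampling is not recorded for any group. Its part in the differences between groups was therefore not tested and cannot be told apart from that of irradiation or formula.

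The 250 bases before the transcript start are shown because the element of the second loop is found in the promoter window of Bmal1 and not in that of Clock. They are RefSeq's sequences on GRCr8, both on the forward strand: chr1:176766078-176766327 for Bmal1 and chr14:32262500-32262749 for Clock. Capitals mark matches, on either strand, to the ROR element consensus, to its shorter and looser core GTAGGTNA, and to the E-box CACGTG.
Bmal1: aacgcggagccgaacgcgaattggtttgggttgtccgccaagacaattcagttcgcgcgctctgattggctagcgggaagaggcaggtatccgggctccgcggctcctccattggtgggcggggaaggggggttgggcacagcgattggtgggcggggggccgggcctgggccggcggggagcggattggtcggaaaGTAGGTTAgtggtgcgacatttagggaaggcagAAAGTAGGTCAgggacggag
Clock: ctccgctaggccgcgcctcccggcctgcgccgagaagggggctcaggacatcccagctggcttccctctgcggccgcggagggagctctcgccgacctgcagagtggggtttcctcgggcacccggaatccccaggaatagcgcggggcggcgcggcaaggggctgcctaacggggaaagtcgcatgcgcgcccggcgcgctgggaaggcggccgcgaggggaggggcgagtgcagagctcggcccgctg

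The Bmal1 window held 1 match to the full ROR element, from 20 to 10 bases before the start, and 2 matches to GTAGGTNA. One of these lies inside the full element, and the other lies from 53 to 46 bases before the start. The only AGGTCA, the half-site of these receptors, lies inside the full element too. Neither Clock window had a match to any motif searched, in the one shown or in a second one that RefSeq gives for a start further downstream. Over 33469 windows of this length before RefSeq starts, 0.317% held the ROR element, 1.69% GTAGGTNA, 14.1% AGGTCA, 5.59% CACGTG and 2.04% TTANGTAA, the D-box bound by DBP. Neither gene had CACGTG or TTANGTAA in its windows. These matches are letters in a sequence, and binding was not measured.

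Library totals were between 33598572 and 48398184 counts. Of low counts, under 40, even numbers made up 65.4% to 76.7% depending on the library, so most fragments were counted by both reads. Bmal1 had 396 to 4177 counts per library and Clock 1295 to 4276. Control 2 and irradiated 4 stood apart across all genes, with scores of 175.9 and 216.3 on a first principal component that held 40.2% of the variance, while the other 16 lay between -52.9 and 34.2. Their mitochondrial shares of the counts were also the lowest, 9.30% and 5.77%, against 12.8% to 39.7% in the others. Irradiated 1, at 28.3, was left out with them in an alternative taken over from earlier work on these data. In bulk tissue fewer cells of a type and less RNA per cell cannot be told apart, and cell type markers were not examined here.

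Bmal1 was lowest in controls, intermediate after irradiation and highest with irradiation plus formula. Levels are in TMM-scaled CPM, that is, counts scaled to the library total multiplied by a factor for its composition. These factors ran from 0.78 in irradiated 5 to 1.30 in irradiated 4. The control libraries had a lowest value of 12.4 CPM, a median of 15.3 CPM and a highest of 25.9 CPM. The irradiated libraries had 16.2, 44.8 and 52.7 CPM in the same order. With the formula the values were 57.7, 83.0 and 104.0 CPM. Every formula library was above every irradiated and every control library, while irradiated and control libraries overlapped: irradiated 4, at 16.2 CPM, lay within the control range. Irradiated 1, at 26.01 CPM, was just above control 3, the highest control, at 25.9 CPM. The other 4 irradiated libraries were tightly placed, at 43.4 to 52.7 CPM.

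Bmal1 averaged 17.8 ± 5.69 CPM in the controls, 38.9 ± 14.4 CPM after irradiation alone and 81.0 ± 15.4 CPM with irradiation and formula (SD, n = 6 each). The log2 fold change was 1.13 for irradiated against control (SE 0.27, 95% interval 0.57 to 1.69). It was 1.06 for irradiated plus formula against irradiated (SE 0.27, 0.50 to 1.62). These 2 differences share the irradiated libraries and are not independent. Between irradiated plus formula and control it was 2.19 (SE 0.27, 1.61 to 2.77), a 4.56-fold difference, which ranked 32nd from the top among 16593 genes tested.

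Leaving out control 2, irradiated 1 and irradiated 4 moved the irradiated group toward the formula group. Irradiated 4 and irradiated 1 had the lowest Bmal1 of that group, at 16.2 and 26.01 CPM, so the direction of this move followed from the choice. Irradiated 1 did not stand apart on the first principal component or in its mitochondrial share. The remaining irradiated libraries averaged 47.8 ± 3.98 CPM (SD, n = 4). The log2 fold change against control then was 1.41 in place of 1.13, and that of the formula against irradiation alone 0.75 in place of 1.06, a 1.68-fold difference. The difference between formula and control stayed at 2.16.

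**Figure D1:**
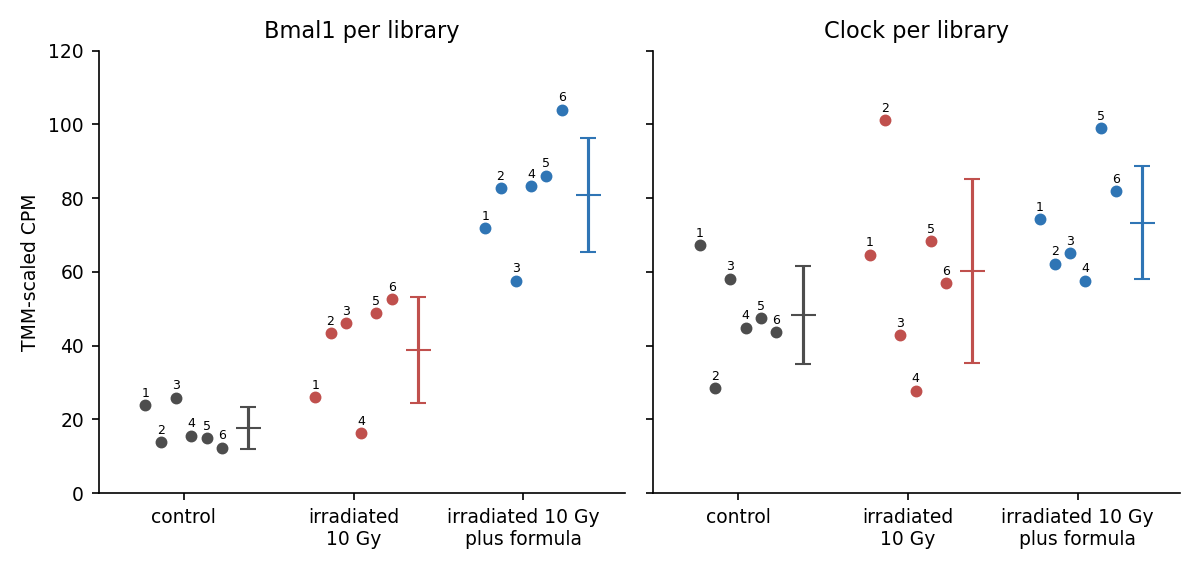
TMM-scaled CPM of Bmal1 (left) and Clock (right) in each of 18 libraries; numbers are replicate numbers, and the bar beside each group is its mean ± SD (n = 6). Bmal1 lies at 12.4 to 25.9 CPM in control and at 57.7 to 104.0 CPM with the formula, while the Clock groups overlap.

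Clock, the partner gene, differed less between groups. Its values in control libraries were 28.4 CPM at the lowest, 46.2 CPM at the median and 67.2 CPM at the highest. The irradiated libraries had 27.8, 60.8 and 101.2 CPM, and the formula libraries 57.6, 69.7 and 99.0 CPM. All 3 ranges overlapped. The irradiated group was the widest, with both the lowest library, irradiated 4, and the highest, irradiated 2. Control 2, which stood apart like irradiated 4, was the lowest control for Clock.

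Clock averaged 48.3 ± 13.3 CPM in the controls, 60.3 ± 25.0 CPM after irradiation and 73.4 ± 15.3 CPM with irradiation and formula (SD, n = 6 each). The steps between neighbouring means were smaller than the SD of any of the groups. For irradiated against control the log2 fold change was 0.32 (SE 0.26, 95% interval -0.22 to 0.86). For the formula against irradiation alone it was 0.28 (SE 0.26, -0.26 to 0.83). Both intervals include 0 and reach up to differences of 1.82-fold and 1.77-fold. For irradiated plus formula against control it was 0.60 (SE 0.26, 0.06 to 1.15), and 6 of 6 formula libraries were above the control median, with 3 of 6 above the highest control. That interval also reached 0 when 1 library was left out: its lower limit became -0.05 with control 2 removed, -0.01 with control 4 removed, -0.02 with control 6 removed and, among the libraries with formula, -0.07 without replicate 5 and -0.02 without replicate 6.

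Counted over the activator pair, 1 of the 2 genes, Bmal1, was higher in every formula library than in every control library, a separation seen in 0.488% of the 16593 genes tested. Bmal1 was also the one of the pair with every formula library above every irradiated library, which held for 0.0783% of genes. Neither was higher in every irradiated library than in every control library, and among all genes tested the share was 0%. Bmal1 was chosen with these contrasts known, so the shares only place it among the other genes.

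**Figure D2:**
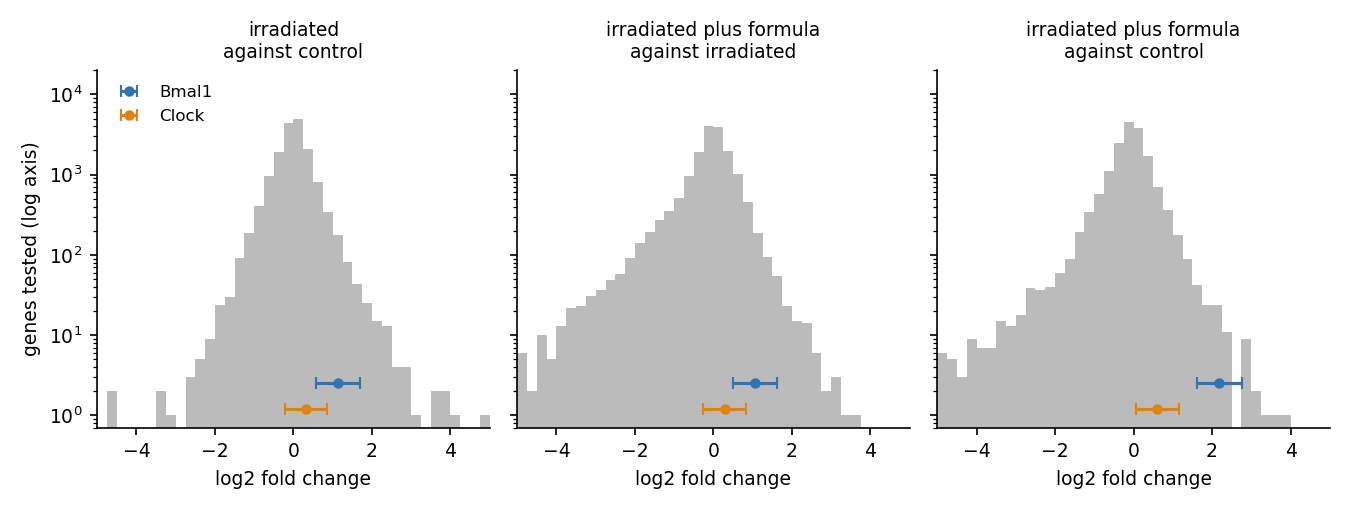
Histograms of the log2 fold changes of all 16593 genes tested in each comparison (grey, vertical axis logarithmic; values beyond 5 in either direction are not drawn), with the fitted value and 95% interval of Bmal1 (blue) and Clock (orange). Bmal1 moves from 1.13 and 1.06 in the single steps to 2.19 between irradiated plus formula and control, and Clock reaches 0.60.

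Group membership accounted for 80.5% of the variance of Bmal1 in log2 CPM, the second highest share among the genes tested. For Clock it accounted for 26.3%, which ranked 1271st, where the median gene had 9.04%. Both genes were chosen with their group levels known, so these ranks only place them among the other genes. The spread inside groups was ordinary for both. The within-group SD on the log2 scale was 0.49 for Bmal1 and 0.47 for Clock, against a median of 0.62 over all genes tested. The coefficient of variation of Bmal1 was 32.0% in the controls, 37.1% after irradiation alone and 19.1% with the formula. The value after irradiation was carried by irradiated 1 and irradiated 4, and without these libraries it was 8.34% (n = 4), so no order of the groups by spread can be read from it.

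The proportion of the partners was compared next, because a ratio of 2 genes inside a library does not depend on how libraries are scaled. Levels were divided by merged exon length, which only approximates the transcripts present. Per kilobase of exon, Bmal1 was at 5.46 ± 1.75 and Clock at 6.34 ± 1.75 CPM per kb in control libraries (SD, n = 6). With the formula, Bmal1 was at 24.9 ± 4.75 and Clock at 9.63 ± 2.01 CPM per kb. The order of the levels of the 2 genes was thus Clock over Bmal1 in the control means and Bmal1 over Clock in the formula means, though in control the difference was smaller than the SD of either gene.

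In control libraries 1 to 6 the per-kilobase ratio of Bmal1 to Clock was 0.834, 1.14, 1.04, 0.815, 0.735 and 0.665. In irradiated libraries 1 to 6 it was 0.943, 1.00, 2.52, 1.37, 1.67 and 2.17. In the libraries with formula it was 2.27, 3.11, 2.08, 3.39, 2.04 and 2.98. The irradiated libraries spread from the control range to the formula range: irradiated 1 and 2 lay among the controls, irradiated 3 and 6 among the formula libraries, and irradiated 4 and 5 between the groups.

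Irradiated 4, low for both genes, had an intermediate ratio. Irradiated 2 had the highest Clock level of all and a ratio near 1, although its Bmal1, at 43.4 CPM, was like that of irradiated 3. The mean log2 ratio was -0.22 ± 0.30 in the controls, 0.59 ± 0.58 after irradiation alone and 1.37 ± 0.32 with the formula (SD, n = 6). The formula libraries were 3.02 times the controls in this ratio, and every one was above every control, whereas 3 of 6 were above every irradiated library. Bmal1 alone was already separated from the controls in this way and was chosen with its levels known. The separation of the ratio is therefore a description, and its share over other pairs of genes was not computed. Without control 2, irradiated 1 and irradiated 4, the log2 difference between irradiated and control was 1.11 in place of 0.82, and that between the formula and irradiation alone 0.57 in place of 0.78.

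**Figure D3:**
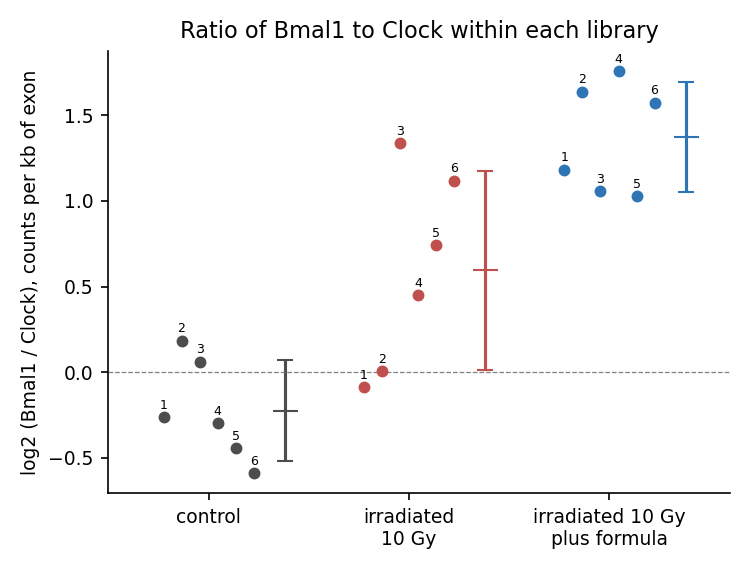
Log2 ratio of Bmal1 to Clock, from counts per kilobase of merged exon, in each library; numbers are replicate numbers, bars are mean ± SD (n = 6), and the dashed line marks equal levels. Control libraries end at 0.18 and formula libraries start at 1.03, with the irradiated libraries spread from -0.09 to 1.34.

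The rule that chose the genes did not rest on differences between libraries of the same group, so the relation of the partners was tested there. Earlier results of these data were nevertheless known when this test was chosen. After each group's mean was subtracted, Bmal1 and Clock had a Pearson r of 0.62 (permutation p = 0.027, adjusted p = 0.11 over 4 relations) and a Spearman rho of 0.54 (permutation p = 0.044, adjusted p = 0.12) over 18 libraries. Neither passed 0.05 after adjustment. Without control 3 and irradiated 4, the libraries farthest from the median of Bmal1, r was 0.31. Leaving out irradiated 4 alone gave r = 0.37 (permutation p = 0.19) and leaving out control 3 alone r = 0.60 (permutation p = 0.046), so of these 2 the relation rests on irradiated 4. Irradiated 4 was also the library with the lowest mitochondrial share, 5.77%, and the part of library quality in the relation was not tested.

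No single group gave a relation past that threshold. In control r was 0.77 (two-sided exact permutation p = 0.057, adjusted p = 0.11, n = 6) and rho 0.83 (exact permutation p = 0.058, adjusted p = 0.12, n = 6). In irradiated libraries r was 0.61 and rho 0.26 (exact permutation p = 0.24 and 0.66, adjusted p = 0.32 and 0.66, n = 6). With the formula r was 0.37 and rho 0.43 (exact permutation p = 0.48 and 0.42, adjusted p = 0.48 and 0.56, n = 6). Without the 2 libraries farthest from each group's median of Bmal1, r was 0.25, -0.45 and 0.12.

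**Figure D4:**
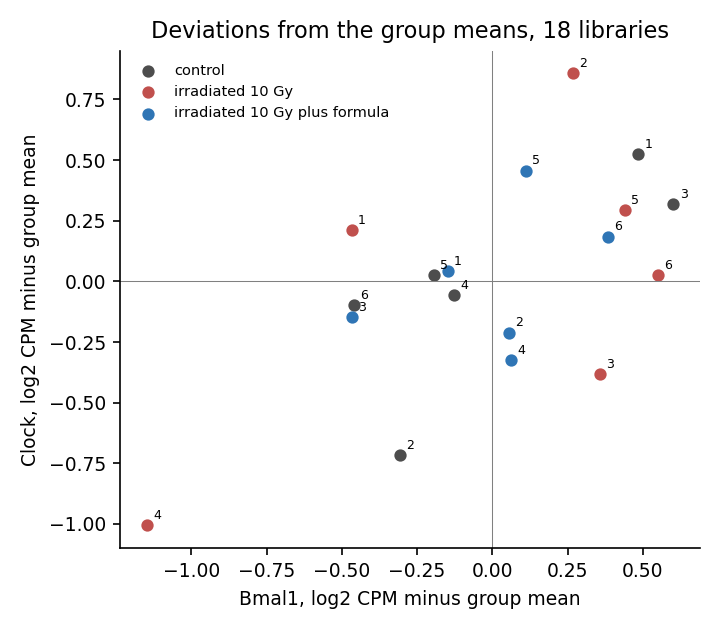
Log2 CPM of Clock against that of Bmal1 in 18 libraries, each minus its group mean; colours are groups and numbers replicate numbers. Irradiated 4, low for both genes, lies apart at the lower left, and the pooled r of 0.62 falls to 0.37 without it.

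The genes whose deviations most resembled those of each partner were looked up among 14315 other genes that averaged 1 CPM or more. These correlations share the libraries, their scaling and their tissue makeup, and are extremes of a long list. For Bmal1 the highest r was 0.86 for ENSRNOG00000027491 on chromosome 1, followed by 0.86 for ENSRNOG00000027770 on the same chromosome. The lowest were -0.84 for ENSRNOG00000019868 on chromosome 2 and -0.83 for ENSRNOG00000012752 on chromosome 19.

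For Clock the highest were 0.92 for ENSRNOG00000027012 on chromosome 15 and 0.92 for ENSRNOG00000007706 on chromosome 5. The lowest were -0.94 for ENSRNOG00000060853 on chromosome 6 and -0.92 for ENSRNOG00000006767 on chromosome 3. Without control 2, irradiated 1 and irradiated 4, these 8 values were between 0.74 and 0.83 or between -0.89 and -0.73. Clock itself ranked 689th for Bmal1 and Bmal1 1581st for Clock, so many other genes followed each partner more closely than the other partner did. The r of the pair was 0.623, where the 95th percentile over these genes was 0.620 with Bmal1 and 0.697 with Clock. The files do not pair these identifiers with symbols, and other clock genes were not named here for that reason.

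The surroundings of each gene were examined for shifts of a whole chromosome stretch. Of 17 annotated genes within 1 Mb of Bmal1, 12 were tested, and between irradiated plus formula and control their log2 fold changes ran from -0.70 to 1.08 with a median of 0.36, all below the 2.19 of Bmal1. Within 1 Mb of Clock 14 of 22 were tested, with -0.92 to 0.29 and a median of -0.22, all below the 0.60 of Clock. No neighbour of either gene was separated without overlap in any of the 3 comparisons, in either direction. Upward separation held for 0% of all 16593 genes tested in irradiated against control. It held for 0.0783% in the formula against irradiation alone and for 0.488% in irradiated plus formula against control. The downward share was not computed. With shares this low, the lack of separated neighbours cannot decide whether a stretch shifted. Nor can their place below Bmal1, which ranked 32nd between formula and control. For the formula against irradiation alone, 1 neighbour of Bmal1 had a higher fitted value than Bmal1, at 2.86. In irradiated against control 2 neighbours of Clock were above it, the highest at 1.04. The median over all genes tested was -0.07 between formula and control.

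**Figure D5:**
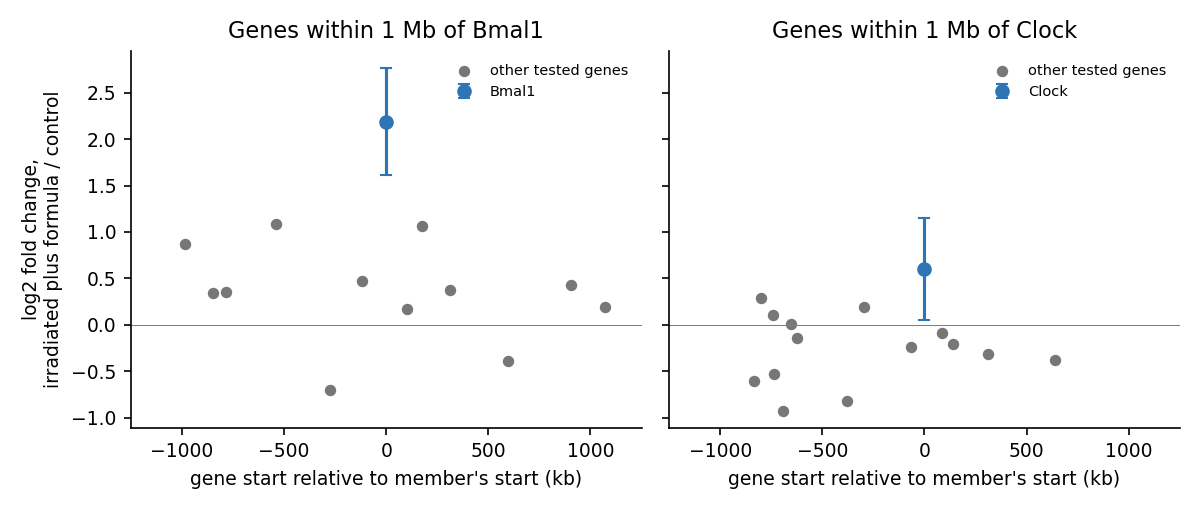
Log2 fold change between irradiated plus formula and control libraries for the tested genes within 1 Mb of Bmal1 (left, 12 genes) and of Clock (right, 14 genes), by the distance of their start from the member's start in kilobases; the blue point with its 95% interval is the member. Bmal1 at 2.19 lies above neighbours that reach 1.08, and Clock at 0.60 above neighbours that reach 0.29.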

How the data were processed

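RNA of intestinal tissue was sequenced in 18 libraries, 6 per group. The deposited values are raw counts per gene, made by the authors with featureCounts 2.1.1 and Ensembl release 110 of mRatBN7.2, per the file headers, without options for read pairs or strand. The submitters' processing notes also list FastQC, fastp, STAR and SAMtools, whose versions are not given here. Other annotation columns of the deposited table, such as merged exon length, served as per-gene constants, and 0 columns of per-sample values were unused.

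TMM factors, filterByExpr (16593 of 30562 genes) and quasi-likelihood fits came from edgeR 4.0.16 in R 4.3.3, with all 18 libraries in 1 model and no covariate. Standard errors were the absolute log2 fold change over the square root of F, so they and the 95% intervals are approximate. CPM is TMM-scaled, and log2 CPM has a prior count of 2. The fit was also run on simulated counts, with the same dispersion for all genes and changes in the formula group only. That setting had no libraries standing apart, so it cannot show how the fit handles those in these data. Alternatives were other scalings and filters, DESeq2 1.42.0, limma-voom (limma 3.58.1), fits of 12 libraries, a replicate term and libraries left out. No 2 libraries agreed within sampling noise (lowest median chi-square 6.38 over 153 pairs). The labels imply but do not state that each library is a separate rat. The p-values given are all for the relation of Bmal1 to Clock, and come from reshuffled pairings of these libraries within groups.

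Both genes, the lists and the tests were chosen with earlier results of these data known. The RefSeq table (GRCr8) matched 0 of the Ensembl IDs, so the list of 30 clock genes and the cell type markers were not used here, and genes other than Bmal1 and Clock are given by ID. Genes were named as the 2 with the highest and the 2 with the lowest within-group r with each, among those averaging 1 CPM or more.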

Additional observations from a re-analysis of the deposited data

How the results depend on the processing

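Over 29 alternatives the log2 fold change of Bmal1 kept its sign in each comparison, from 1.02 to 1.41 for irradiated against control, from 0.75 to 1.16 for the formula against irradiation alone and from 1.93 to 2.33 for irradiated plus formula against control. That of Clock ran from 0.11 to 0.47, 0.11 to 0.49 and 0.47 to 0.72 in the same order. No fold change or ratio moved by more than the within-group SD of single libraries on the log2 scale, a wide measure: without control 2, irradiated 1 and irradiated 4, Bmal1 moved by more than the SE of its difference, from 1.13 to 1.41 and from 1.06 to 0.75. In 27 alternatives fitted with edgeR, the 95% interval of Bmal1 included 0 in 0 of 27 in each comparison. That of Clock included 0 in 27 of 27 for irradiated against control and for the formula against irradiation alone, and in 5 of 27 for irradiated plus formula against control. With each library left out in turn, the within-group r of Bmal1 and Clock was between 0.37 and 0.70. It no longer passed an unadjusted threshold without control 1 (r = 0.59, permutation p = 0.059), without irradiated 4, or without control 2, irradiated 1 and irradiated 4 (r = 0.37, permutation p = 0.11), where fewer libraries were also compared. With a replicate block the fold changes of Bmal1 were 1.08, 1.12 and 2.20, and those of Clock 0.26, 0.32 and 0.58. The numbers were not taken to pair the rats: of 18 same-numbered pairs, 7 correlated above 0.1 (lowest -0.55, highest 0.63), and for 4 of 18 libraries the closest library of another group had the same number. Counts of other clock genes were not run for want of symbols. Both genes had at least 396 counts in every library, so depth limited these values less than the spread between 6 libraries did. Most fragments were counted by both reads, so the fragments behind these counts were fewer than the counts.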
